A study of Mus musculus with 8 samples.

Results

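Guanylate-binding proteins (GBPs) and the immunity-related p47 GTPases are families of GTP-hydrolysing proteins that macrophages make in quantity when interferon gamma reaches them. GBPs are large, dynamin-like proteins that coat bacteria and the vacuoles of intracellular parasites, and Gbp4, Gbp8 and Gbp9 belong to this family. Iigp1, also called Irga6, is a p47 GTPase that loads onto the vacuole membrane of parasites such as Toxoplasma and helps to break it. In both families the genes lie side by side in clusters.

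Both loci were followed here in chromatin immunoprecipitation with sequencing (ChIP-seq) of mouse bone marrow-derived macrophages, using the authors' lists of places where tags pile up. The windows were 105250000 to 105700000 on chromosome 5, drawn for the GBP genes Gbp4, Gbp8 and Gbp9, and 60200000 to 60600000 on chromosome 18, drawn for Iigp1 and its p47 relatives (both mm8, the build of all coordinates). They were chosen by a measured value: they hold 3 of the 5 tallest clusters of H3K4me3, the histone mark of active promoters, that were listed at 4 h and not at 0 h. The fifth of those clusters has a height of 101 and the next one, just outside that choice, has a height of 76 and also lies in the chromosome 18 window. The windows hold 362 of the 364537 entries of the 8 lists, 207 on chromosome 5 and 155 on chromosome 18, and all of them were used. In the RefSeq gene order (GRCm38.p6), Gbp8, Gbp9 and Gbp4 are neighbours and are followed by Gbp10, Gbp6 and the pseudogene Gbp11. Iigp1 follows Gm4951, Gm4841 and F830016B08Rik, whose synonyms are Ifgga2, Ifgga3 and Ifgga4. That order is on another build than the lists, so no entry below is tied to a single gene.

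The macrophages came from female Fvb mice of 6 to 8 weeks and were untreated (0 h) or stimulated with lipopolysaccharide, a bacterial cell wall component, together with interferon gamma. Antibodies against H3K4me3 and the Polycomb mark H3K27me3 were used at 0 and 4 h, against RNA polymerase II (Pol II) at 0, 2 and 4 h, and against the H3K27 demethylase Jmjd3 at 2 h. Every antibody and time had a single library (8 in all). Differences between times therefore have no replicate check, and there are no p-values. An H3K4me3 entry is a cluster with a start and an end; an entry of the other antibodies is a single position. The value of an entry, called its height, is the number of tags that overlap there, unscaled, in libraries whose exact depth is unknown beyond the 10000000 uniquely mapped tags that each exceeded per the labels. The cells were assayed in bulk, so a height cannot tell the share of cells with the mark from the amount per cell. Single positions were given 500 bp, and entries sharing at least 1 bp are called overlapping. Brackets hold exact 95% binomial intervals for shares and exact 95% Poisson intervals for densities; they cover counting error only, since neighbouring entries are not independent.

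In untreated macrophages few entries were listed inside either window, and after stimulation Pol II was listed at many positions, in stretches with gaps between them. In the chromosome 5 window, 2 Pol II positions were listed at 0 h, 89 at 2 h and 89 at 4 h. In the chromosome 18 window none was listed at 0 h, but 71 at 2 h and 75 at 4 h. The Pol II list of untreated cells continued for 14.9 Mb beyond the chromosome 18 window, so the absence there is not an end of that list. The 2 and 4 h lists continued for 30.1 Mb beyond it, so their last positions on this chromosome lie past the end of the 0 h list. Such positions count as absent at 0 h in the whole-list shares given below. The density of the 0 h list was likewise taken over the span of all lists. How far this shifts either value was not tested. Per Mb, the windows together held 0.109 times the density of the whole list in untreated cells (0.0131 to 0.392). That value depends on the windows' edges: widened by 100 kb at both ends they held 17 positions at 0 h, 0.627 times the list's density (0.365 to 1). After stimulation they held 8.44 times the list's density at 2 h (7.18 to 9.85) and 8.6 times at 4 h (7.34 to 10).

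**Figure D1:**
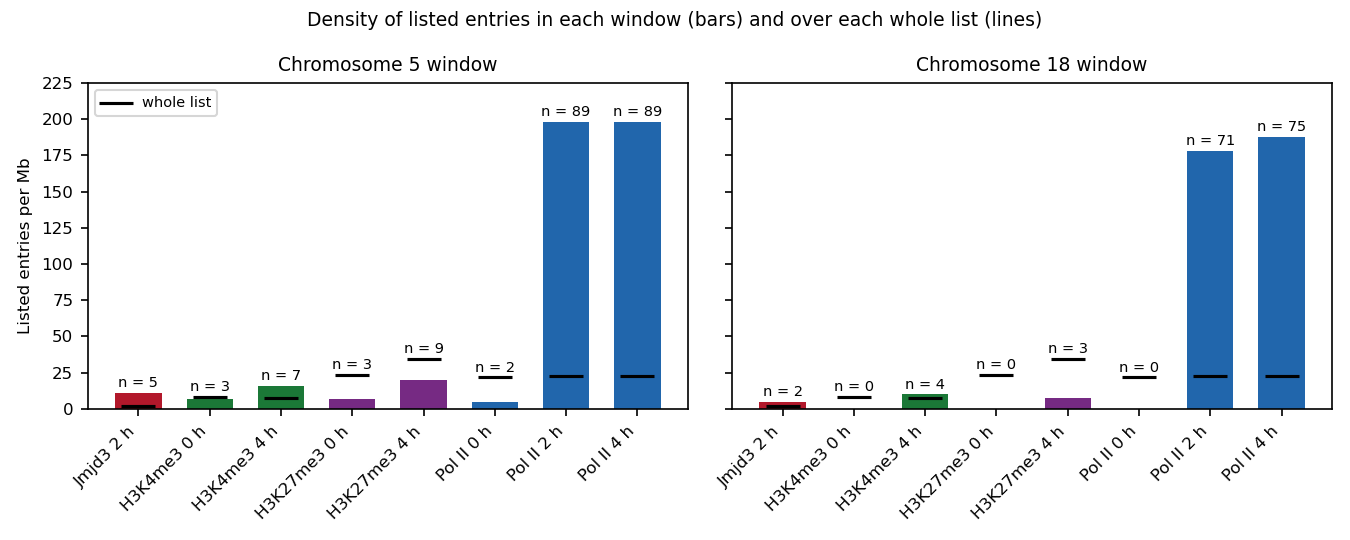
Listed entries per Mb (vertical axis) for each antibody and time in the chromosome 5 window (left) and the chromosome 18 window (right); bars are the windows, black lines the whole list, and n is the number of entries in the window. Pol II bars at 2 and 4 h stand at 178 to 198 per Mb against 22.3 and 22.4 per Mb for the lists, while H3K27me3 bars stay under their lines at both times.

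The other antibodies had far fewer entries. On chromosome 5, 3 H3K4me3 clusters were listed at 0 h and 7 at 4 h; on chromosome 18 none was listed at 0 h and 4 at 4 h. Jmjd3 had 5 positions on chromosome 5 and 2 on chromosome 18, which is 4.8 times its density over the whole list (1.93 to 9.89). By window this was 6.48 times on chromosome 5 (2.1 to 15.1) and 2.92 times on chromosome 18 (0.353 to 10.5, which includes 1). On chromosome 5, 4 of the 5 lay between 105350526 and 105386775. The windows were chosen by H3K4me3, and 84% of the Jmjd3 list overlaps a 4 h H3K4me3 cluster. Whether the Jmjd3 density is independent of that choice was not tested. H3K27me3 had 3 positions at 0 h and 9 at 4 h on chromosome 5, and 0 and 3 on chromosome 18. Its density was below that of the whole list at both times, at 0.152 times (0.0313 to 0.443) and 0.406 times (0.21 to 0.71).

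**Figure D2:**
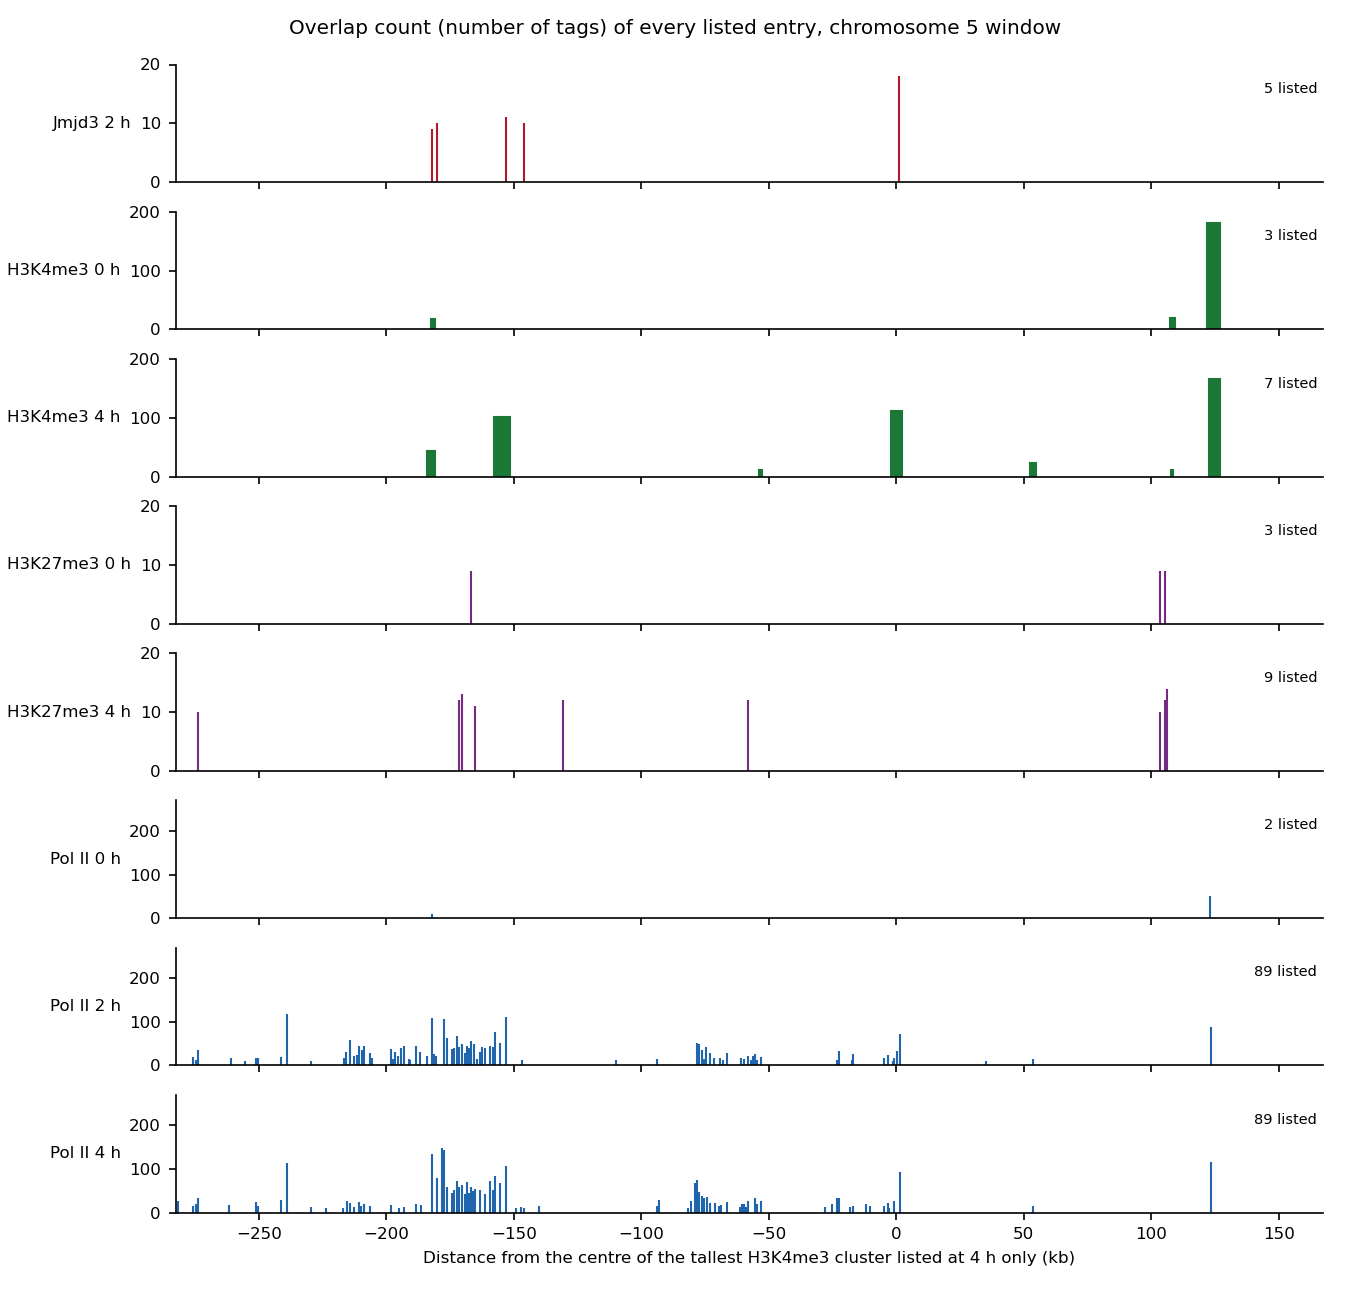
Every entry of the 8 lists in the chromosome 5 window, by distance in kb from the centre of the cluster of height 111 (horizontal axis) and by height in overlapping tags (vertical axis, scaled per antibody); green boxes are H3K4me3 clusters and lines are single positions. Pol II goes from 2 positions at 0 h to 89 at 2 h and 89 at 4 h, and the H3K4me3 clusters of height 101 and 111 appear at 4 h only.

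Of the 11 H3K4me3 clusters listed at 4 h in the windows, 8 had no overlapping cluster at 0 h, against 5.07% of the 19631 clusters of the whole list. This contrast chose the windows, so nothing is read from that share. The 8 had a median height of 50 and a median width of 3620 bp. All 995 such clusters had medians of 12 and 1692 bp, but the windows were chosen for tall ones, so nothing is read from that difference either. None of the 3 clusters of untreated cells in the windows was without a partner at 4 h, where 13.1% of the whole list was. This too depends on the windows' edges: widened by 100 kb at both ends, they held 11 clusters at 0 h, of which 2 (18.2%) had no partner. The 0 h density of H3K4me3 was 0.423 times that of its list in the windows (0.0871 to 1.23). In the widened windows it was 1.05 times (0.526 to 1.88).

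The tallest newly listed cluster of the GBP window ran from 105530499 to 105534857, with a height of 111 and a width of 4359 bp. The nearest cluster of untreated cells was 105 kb away. Pol II was listed inside it at 4 positions at 2 h, of heights 11 to 71, and at 2 positions at 4 h, of heights 26 and 92. The highest of them was at 105533983 at 2 h and 105533986 at 4 h. The tallest Jmjd3 position of either window, at 105533822 with a height of 18, lay 161 bp from it. Only 9.44% of the Jmjd3 list is taller than that position. No Pol II position of untreated cells and no H3K27me3 position of either time was within 5 kb of this cluster.

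The second newly listed cluster, from 105374881 to 105381009, had a height of 101 and a width of 6129 bp, wider than 92.9% of the 4 h list. It held 3 Pol II positions at each of 2 and 4 h. At the tallest, 105379511, the height was 111 at 2 h, and at its partner 105379529 it was 107 at 4 h. Jmjd3 was listed at 105379498, 13 bp from the 2 h position, with a height of 11. A second Jmjd3 position, 105386775 with a height of 10, was 5766 bp outside this cluster and 58 bp from a low Pol II position of 4 h (height 11). It was the only Jmjd3 position in the windows with no overlapping Pol II position at 2 h.

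Another cluster on chromosome 5 was already listed in untreated cells. There it ran from 105350119 to 105351573 with a height of 18 and a width of 1455 bp; at 4 h it ran from 105348529 to 105351816 with a height of 44 and a width of 3288 bp. It also held 1 of the 2 Pol II positions of untreated cells, 105350693, at 9, the lowest height of that list. At 2 h Pol II was listed at 105350447 with a height of 108, and at 4 h at 105350455 with 135. Jmjd3 had 2 positions near it, at 105350526 inside the cluster (height 9, 79 bp from the 2 h Pol II position) and at 105352365, 549 bp outside it (height 10, 14 bp from a 2 h position of height 21). This is therefore the only place in the windows where Pol II, H3K4me3 and Jmjd3 were all listed and the first 2 were also listed at 0 h.

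The remaining chromosome 5 clusters were low or were listed at both times. Clusters of height 11 (105478723 to 105480031) and 24 (105585084 to 105587315) were listed at 4 h only, each with 1 Pol II position at 2 h and 1 at 4 h and no Jmjd3. The cluster at 105640411 to 105641245 had a height of 12 at 4 h and 19 at 0 h and held no Pol II. The tallest of the window, 105655126 to 105659711, had a height of 166 at 4 h and 180 at 0 h. Its Pol II height was 50 in untreated cells (105655814), 89 at 2 h (105656120) and 116 at 4 h (105656148). These heights were above 90.6%, 88.6% and 94.4% of their own lists, so the rank within the list was lower at 2 h than at 0 h. The cluster from 105655126 was the only one with Pol II at all 3 times besides the cluster from 105348529, and it held no Jmjd3.

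**Figure D3:**
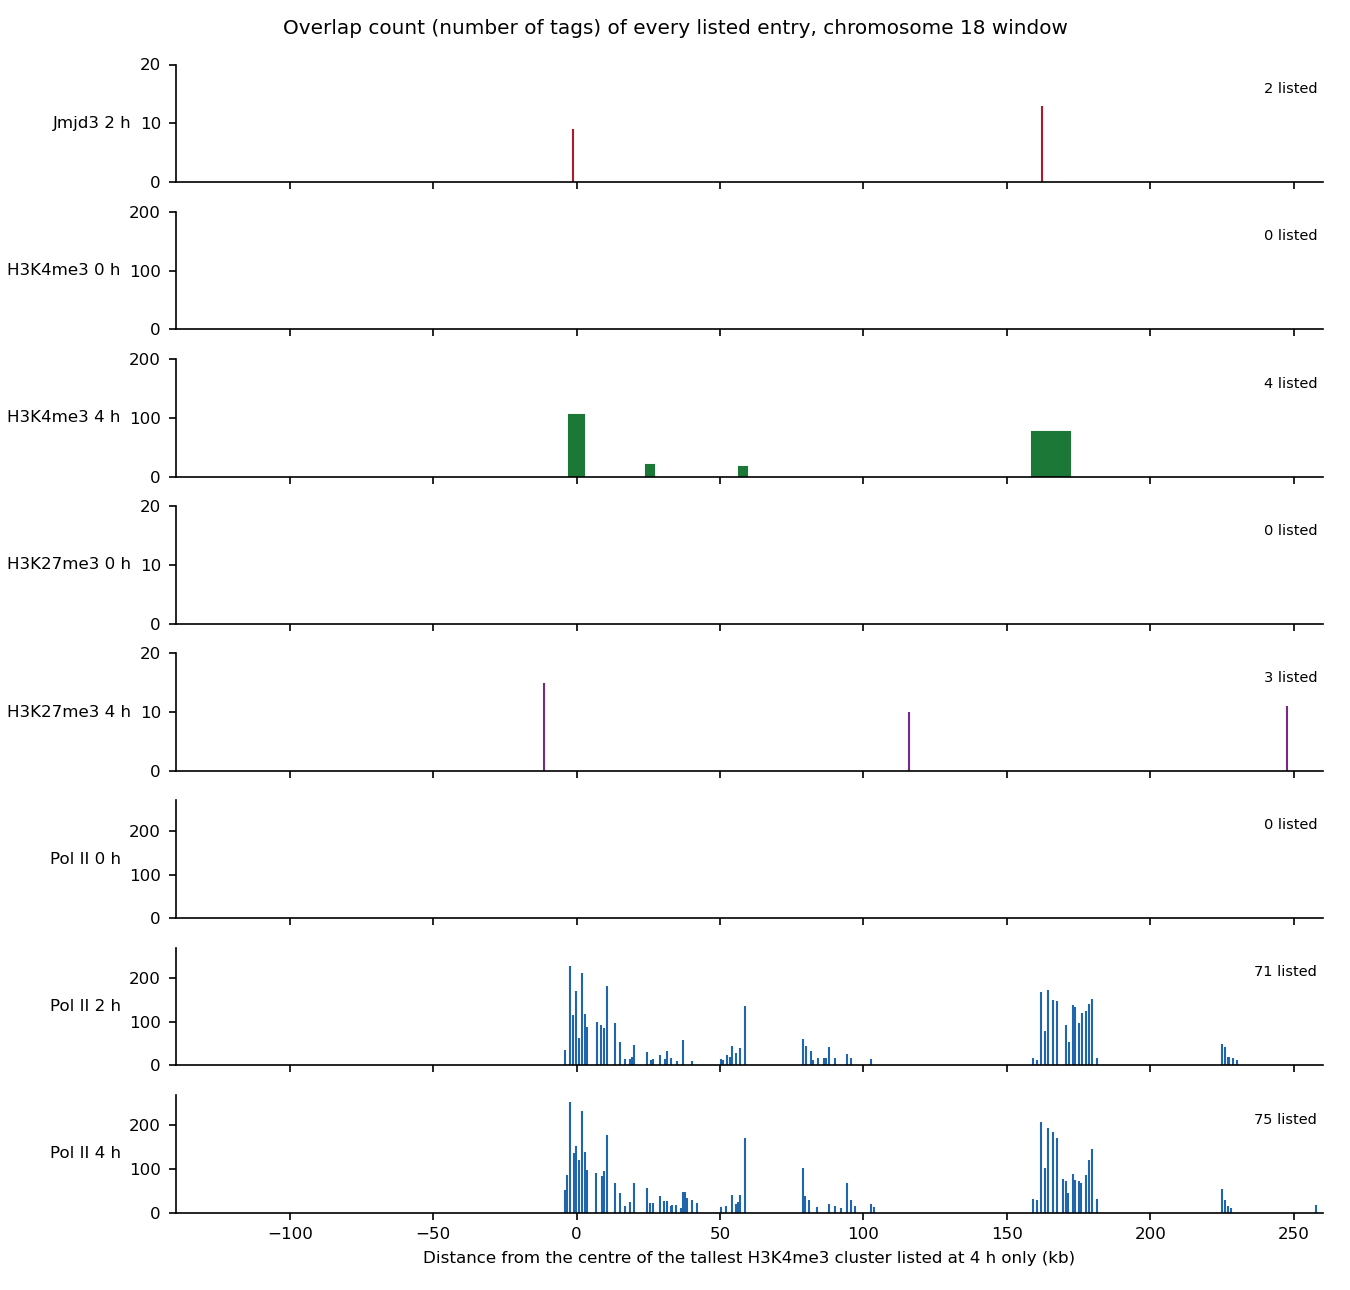
Every entry of the 8 lists in the chromosome 18 window, by distance in kb from the centre of the cluster of height 105 (horizontal axis) and by height in overlapping tags (vertical axis, scaled per antibody); green boxes are H3K4me3 clusters and lines are single positions. No entry is listed at 0 h for H3K4me3, H3K27me3 or Pol II; at 4 h there are 4 clusters and 75 Pol II positions reaching a height of 254.

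On chromosome 18 all 4 clusters were listed at 4 h only, and the nearest clusters of untreated cells were 94.2 to 264 kb away. The tallest, 60337237 to 60342378, had a height of 105 and a width of 5142 bp. Pol II was listed at 5 positions inside it at 2 h, of heights 63 to 228, and at 5 positions at 4 h, of heights 121 to 254. The highest Pol II position of either window was there, at 60337532 at 2 h and 60337515 at 4 h. Jmjd3 was listed at 60338672, 94 bp from a Pol II position of height 116, at 9, the lowest height of the Jmjd3 list.

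The cluster from 60498679 to 60511788 was 13110 bp wide, the widest of the 995 clusters listed at 4 h only and the 45th widest of the whole 4 h list. Its height was 76, lower than the 97 that is the median of that list. Pol II was listed at 9 positions inside it at 2 h, of heights 13 to 172, and at 10 at 4 h, of heights 29 to 208. Jmjd3, with a height of 13 at 60501887, lay 3.21 kb from one edge and 9.9 kb from the other, and 32 bp from a 2 h Pol II position of height 168. The other 2 clusters were low in H3K4me3 (20 at 60363949 to 60366830 and 16 at 60396456 to 60399160) and held no Jmjd3. Pol II at the second of these was high all the same, 136 at 60398548 at 2 h and 170 at 60398562 at 4 h.

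**Figure D4:**
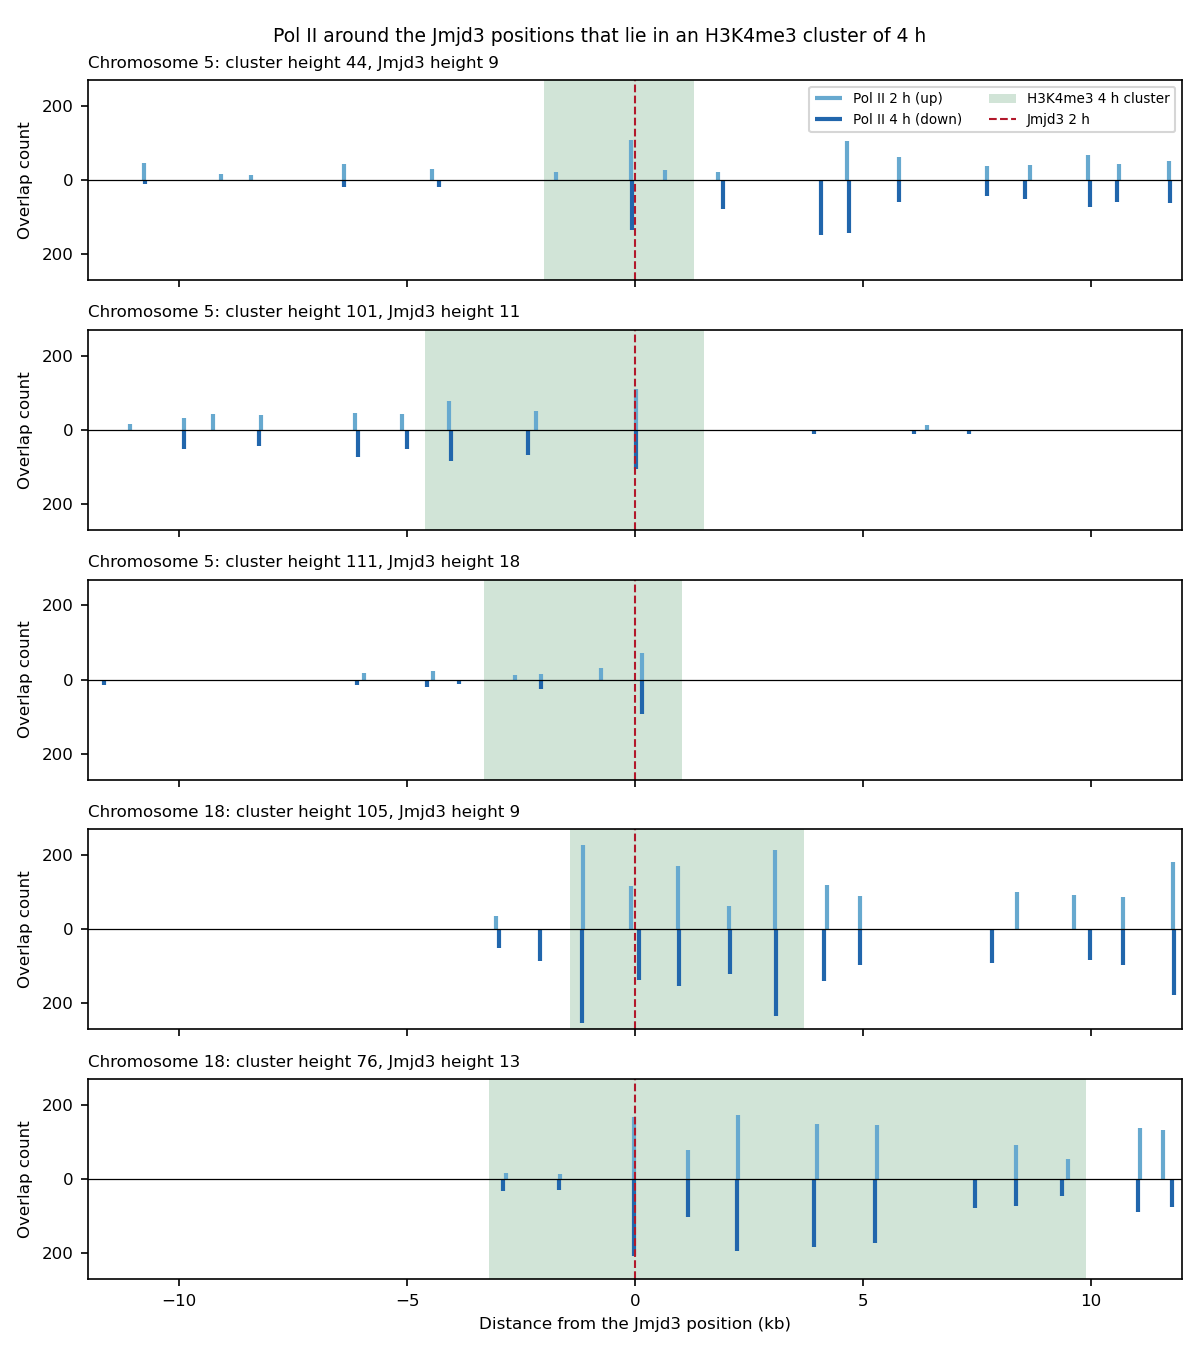
Pol II positions around the 5 Jmjd3 positions that lie in an H3K4me3 cluster of 4 h, by distance in kb from Jmjd3 (horizontal axis); light bars upward are heights at 2 h and dark bars downward are heights at 4 h, in overlapping tags, and the green area is the cluster. A Pol II position lies within 161 bp of Jmjd3 at 2 h in each panel.

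Jmjd3, read as a readout of its own, mostly overlapped H3K4me3 and Pol II, as its whole list did. Of its 7 positions, 5 (71.4%, 29 to 96.3) overlapped an H3K4me3 cluster of 4 h, beside 84% of the whole list, and 6 (85.7%, 42.1 to 99.6) overlapped a Pol II position at 2 h, beside 80.7%. These intervals include the shares of the whole list. The distance to the nearest 2 h Pol II position was 13, 14, 32, 79, 94, 161 and 867 bp, with a median of 79 bp beside 117 bp for the whole list. At 2 h Pol II was 8.44 times as dense in the windows as over its list, and the part of this in the distances was not tested. The heights ran from 9 to 18, where the median of the Jmjd3 list is 10. The nearest H3K27me3 position to any of the 7 was 13483 bp away at 0 h and 8727 bp away at 4 h.

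The windows were chosen by H3K4me3 and not by the listing of Pol II, but with earlier results of these data known. Whether the Pol II shares are independent of that choice was not tested. At 2 h, 157 of 160 positions (98.1%, 94.6 to 99.6) had no overlapping position at 0 h, beside 49.6% of the whole list. At 4 h, 162 of 164 (98.8%, 95.7 to 99.9) had none, beside 45.2%. The exceptions were those at the clusters from 105348529 and 105655126 already described.

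Most Pol II positions of 2 h and of 4 h had an overlapping position at the other time. Of the 164 positions of 4 h, 32 (19.5%, 13.7 to 26.4) had no overlapping position at 2 h, beside 32.3% of the whole list, and of the 160 positions of 2 h, 28 (17.5%, 12 to 24.3) had none at 4 h, beside 32%. When each position was paired with the mutually nearest one of the other time, 40 of the 130 pairs in the windows (30.8%) were at most 10 bp apart, beside 17.7% of all pairs of the series. The median distance was 32 bp in the windows and 47 bp over the series, but 23 bp for pairs of mean height 40 or more. Pol II was also 8.44 times as dense in the windows as over its list at 2 h, and 8.6 times at 4 h. The parts of height and of density in this overlap and closeness were not tested. Position 60503046 was listed at both times to the base, with heights of 78 and 102. The windows' median heights, 30.5 at 2 h and 30 at 4 h, were above the list medians of 17 and 19. With only the entries above their list's median height, 27 of 110 positions of 4 h (24.5%, 16.8 to 33.7) had no overlapping position at 2 h, beside 26.4% of the list, a share that the interval includes.

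Most of this Pol II lay outside the H3K4me3 clusters, in long stretches. At 2 h, 32 of 160 positions (20%, 14.1 to 27) overlapped a 4 h cluster, beside 36.5% of the list, and at 4 h 29 of 164 (17.7%, 12.2 to 24.4) did, beside 36.1%. Positions more than 5 kb from any 4 h cluster were 58.8% of the windows' positions at 2 h and 61% at 4 h, beside 47.1% and 47.5%. When positions of 2 and 4 h no more than 5 kb apart were joined, the longest stretch ran for 52.4 kb on chromosome 5, from 105334434 to 105386833, with 36 positions at 2 h and 31 at 4 h. It spanned the clusters of height 44 and 101, and 98.8% of the 20262 such stretches of the series were shorter. The longest on chromosome 18 ran for 46.1 kb, from 60335613 to 60381722, and held 28 positions at 2 h and 33 at 4 h. That stretch began 1.62 kb before the cluster of height 105 and continued for 39.3 kb after it, and among the 6455 stretches with no Pol II position at 0 h it was the 18th longest.

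The loci differed in how tall Pol II was. In the p47 window, 9 of 71 positions at 2 h (12.7%, 5.96 to 22.7) were taller than the 95th percentile of the 2 h list, a height of 141, and in the GBP window 0 of 89 were (up to 4.06%); 4.99% of the list is taller. At 4 h, where that percentile is a height of 122, they were 12 of 75 (16%, 8.55 to 26.3) and 3 of 89 (3.37%, 0.701 to 9.54), beside 4.96% of the list. The 3 on chromosome 5 were 105350455 (135), 105354615 (149) and 105355219 (144), at or just after the cluster that untreated cells already had. The difference between the windows was not tested, as neighbouring positions are not independent. The median height was 28 on chromosome 5 and 43 on chromosome 18 at 2 h, and 25 and 44 at 4 h.

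Several Pol II sites stood far from any H3K4me3 cluster of 4 h, the only clusters to which distances were taken here. Among positions more than 5 kb from a 4 h cluster the tallest was at 60350484 at 2 h and 60350486 at 4 h, with heights of 182 and 177, 8.11 kb from the nearest. Much farther out, position 105293838 had a height of 118 at 2 h and its partner 105293823 had 113 at 4 h, 54.7 kb from the nearest cluster. On chromosome 18, position 60418794 had a height of 60 at 2 h and its partner 60418797 had 103 at 4 h, 19.6 kb from a cluster. A group starting at 60564818 reached 48 at 2 h and 53 at 4 h, 53 kb from one. None of these 4 sites had a Jmjd3 position or, at 0 h, a Pol II position.

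Heights at 2 and 4 h were also set side by side within the windows, position by position. Mutually nearest positions less than 500 bp apart were paired, and the ratio of the height at 4 h to that at 2 h had a median of 1 over all 38454 pairs of the series, with 47.8% higher at 4 h. Taller pairs were lower: the 13021 pairs of mean height 40 or more had a median of 0.896, with quartiles of 0.723 and 1.11. The ratio puts libraries of unknown depth together, so it is read only against other pairs of the same lists. The segments below were cut at the edges of the 4 h clusters, and the runs of pairs named within them were picked for their direction, both after the values had been seen.

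On chromosome 5 the segments on either side of the cluster from 105348529 went opposite ways. Before it, 5 of 22 pairs were higher at 4 h, with a median ratio of 0.644. Within that segment, the last 13 pairs, from 105316272 to 105346067, were all lower at 4 h, with ratios of 0.267 to 0.871 and a median of 0.5. At 105339764, for example, the height was 45 at 2 h and 12 at its 4 h partner, and 0.2% of all pairs have a lower ratio. After the cluster, up to the one from 105374881, 16 of 17 pairs were higher at 4 h, with a median ratio of 1.26. The largest ratio there was 3.76, at 105352351, where a height of 21 at 2 h was paired with 79 at 4 h, 84 bp from a Jmjd3 position. Beyond the cluster from 105374881, 8 of 16 pairs were higher, close to the share of the whole series.

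**Figure D5:**
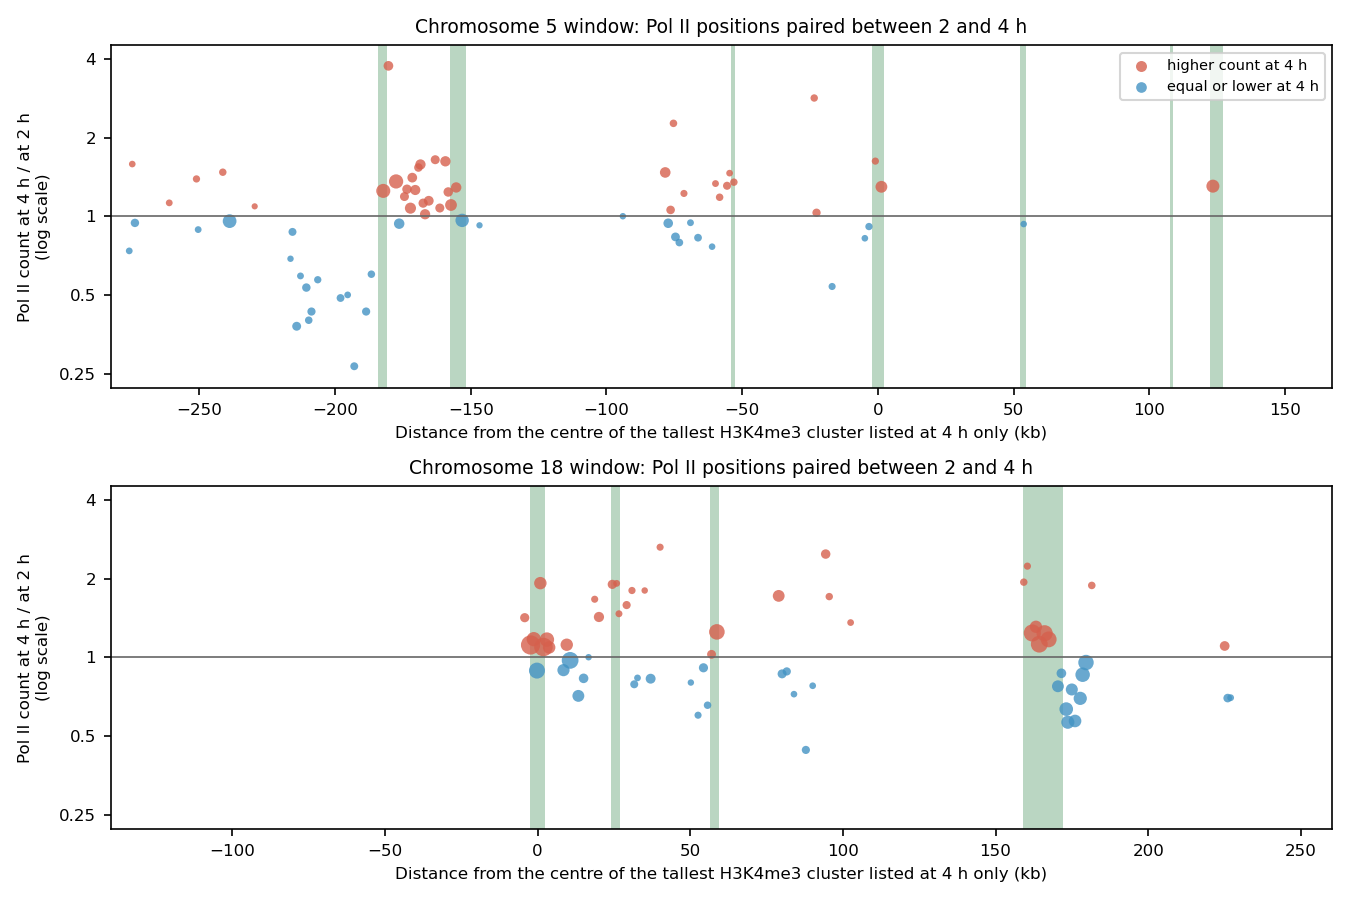
Ratio of Pol II height at 4 h to that at 2 h (vertical axis, log scale) for each paired position, by distance in kb from the centre of the tallest newly listed H3K4me3 cluster (horizontal axis), on chromosome 5 (top) and chromosome 18 (bottom); point area grows with height and green bands are H3K4me3 clusters of 4 h. The 13 pairs just before the first band on chromosome 5 lie under 1, 16 of the 17 between the first and second bands lie above it, and on chromosome 18 the points turn from above to under 1 within the widest band.

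At the widest cluster of chromosome 18 the ratios changed in the opposite order along the coordinate, from higher to lower. Along the rest of that window there was no single such change. Inside the widest cluster 7 of 9 pairs were higher at 4 h, with a median ratio of 1.23, and after it, to the end of the window, 2 of 11 were, with a median of 0.7. The change lay inside the cluster: the pairs from 60499060 to 60507205 had ratios of 1.12 to 2.23, and those from 60510241 to 60519433 had ratios of 0.564 to 0.954. The second run holds only pairs of mean height 40 or more. Its median of 0.753 lies within the quartiles of such pairs in the series, 0.723 and 1.11. These runs end where the direction changes, so that all their pairs go one way is fixed by how they were picked. The last pair of the same stretch, at 60521326, was higher again, with heights of 17 and 32 and a ratio of 1.88. At 60501855 the height was 168 at 2 h and 208 at its 4 h partner, and at 60512960 it was 139 and 88. At the cluster of height 105, 4 of 5 pairs were higher at 4 h, with a median ratio of 1.11, and in the segment after it 5 of 10 were. In the cluster from 60363949, 3 of 3 pairs were higher, and after it 4 of 11. In the cluster from 60396456, 2 of 2 were higher, and after it 4 of 9. Whether these runs would be seen in another pair of libraries was not tested, as each time has 1 library.

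H3K27me3 was sparse and low in both windows. At 0 h its 3 positions, 105365848, 105636229 and 105637868, were all at 9, the lowest height of that list. At 4 h the 12 positions had heights of 10 to 15, and the median of that list is 13. Of the 12, 10 (83.3%, 51.6 to 97.9) had no overlapping position at 0 h, beside 51.7% of the whole list, which the interval just includes. Of the 3 positions of 0 h, 1 (105365848) had no overlapping position at 4 h, beside 28.3% of the list. The nearest 4 h position to it was 1408 bp away.

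The H3K27me3 positions that were kept lay together near the low H3K4me3 cluster at 105640411. They were 105636229 and 105637868 at 0 h and 105636097 and 105637888 at 4 h, 132 and 20 bp apart, with one more 4 h position at 105638650 of height 14. The nearest Pol II position of 2 or 4 h to any of the 5 was 17470 bp away. On chromosome 18 the 3 positions of 4 h, 60328400 (15), 60455586 (10) and 60587475 (11), were at least 7213 bp from Pol II of 2 or 4 h. The windows' H3K4me3 clusters held no H3K27me3 position at either time.

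The other H3K27me3 positions of 4 h on chromosome 5, apart from 105401940 (height 12), coincided with Pol II. Of the 12 positions in the windows, 5 (41.7%, 15.2 to 72.3) overlapped a Pol II position of 4 h, beside 2.1% of the whole list. Those 5 were 105258966, 105361092, 105362266, 105367256 and 105474343, of heights 10 to 13, and they lay 17, 1, 7, 6 and 2 bp from Pol II positions of heights 26 to 63. Over the whole list, 19.3% of the H3K27me3 positions less than 500 bp from Pol II of 4 h were within 20 bp of it. From the nearest Pol II of 2 h the same 5 were 15 to 46 bp away. Pol II was 8.6 times as dense in the windows as over the whole list, and its part in this overlap was not tested. The 0 h H3K27me3 position 105365848 lay as close to Pol II of later times. It was 8 bp from a 2 h position and 24 bp from a 4 h position, in a segment with no Pol II listed at 0 h.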

How the data were processed

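Each library has 1 deposited peak list, on mm8 per the submitters' processing notes. Its signal is the number of overlapping tags at each entry, which the authors gave unscaled as far as the file headers say. Chromatin came from 500000000 cells for Jmjd3 and 100000000 for each other library, per the labels' protocols; for the peak caller, threshold and control, details were not given in the sources used here. Across lists, the lowest height was 9 to 11, so a place without an entry may still hold tags under that number. Exact depth was unknown, and heights were ranked within their own list.

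Calls were made over whole lists and read out in the windows. The rule was to describe every H3K4me3 cluster with the other entries in or within 5 kb of it, and other positions by stretch. The windows, genes and comparisons were chosen with earlier results of these data known. Promoter sequences were not matched for Gbp4, Gbp8, Gbp9 or Iigp1, and the planned list of pathway genes was not analysed here, as the gene table is on GRCm38.p6. Overlap and pairing were tested on simulated data: among 4000 positions with 1254 planted overlaps, 1254 were found. The work was done in Python 3.11.15 with scipy 1.17.1, pandas 2.3.3, matplotlib 3.10.9 and numpy 2.4.6. Alternatives covered the overlap rule, position width, height, list length and window extent; 2 on Pol II pairs were chosen after seeing the data.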

Additional observations from a re-analysis of the deposited data

How the results depend on the processing

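Of 88 recomputed values, 70 stayed within the 95% interval of the reported value and 18 moved outside it. Some of the 70 could not move, since the setting left their entries unchanged, such as clusters against clusters under another position width. Positions of 200 bp put Pol II absent at 0 h at 100% for both 2 and 4 h, and Pol II of 4 h absent at 2 h at 28.7%, beside 43.2% of the list. That last share was 27.4% when at least 50% of the shorter interval had to be shared, and 7.93% with entries within 1 kb counted as shared, beside 40.8% and 17.3% of the list. The 1 kb rule also brought Jmjd3 overlapping Pol II at 2 h to 100%. With only entries above their list's median height, H3K27me3 of 4 h absent at 0 h was 100% (2 of 2) and Jmjd3 overlapping Pol II was 100% (3 of 3). Densities relative to the list were then 0 (0 h) and 0.151 (4 h) for H3K27me3, while Pol II had 12.4 (2 h) and 11.6 (4 h). With the windows widened by 100 kb at both ends, the relative density of Pol II was 0.627 at 0 h, where 17 positions were listed in place of 2, and 6.46 and 6.85 at 2 and 4 h; the positions absent at 0 h were 92.2% and 94.3%. Lists of equal length moved none of the values outside its interval. That cut left the Jmjd3, Pol II, 4 h H3K4me3 and 0 h H3K27me3 lists whole. Values read from those lists alone could not move. For the Pol II pairs between the clusters from 105348529 and 105374881 on chromosome 5, counting pairs above the median ratio of taller pairs, 0.896, gave 100% (17 of 17), beside 62.3% of the list; pairing within 100 bp moved no segment outside its interval. No paired analysis was possible because each antibody and time has 1 library. With 7 Jmjd3 and 3 and 12 H3K27me3 entries, their shares have wide intervals.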

Other observations

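A few further stretches of Pol II in these loci had few or no other entries. In the GBP window, a stretch of 28.6 kb ran from 105451045 to 105479627, with 18 positions at 2 h and 21 at 4 h and none at 0 h. Its tallest position was 105454334 at 2 h (height 51) and 105454337 at 4 h (75), near one end, and the H3K4me3 cluster of height 11 lay at the other end, 24.4 kb away. In the p47 window, a stretch of 18 kb from 60418794 to 60436791 held 11 positions at 2 h and 10 at 4 h and overlapped no H3K4me3 cluster and no Jmjd3 position. Its pairs ranged from a ratio of 0.442 at 60427690 to 2.48 at 60434178. In the GBP window, a stretch of 11.2 kb from 105315878 to 105327114, also without H3K4me3 or Jmjd3, had 8 pairs that were all lower at 4 h, with a median ratio of 0.552. These 8 are not a separate set: they are the first of the 13 pairs from 105316272 to 105346067 already described, which were picked for their direction.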
